A study of Mus musculus with 4 samples.

Results

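Nuclear factor I (NFI) genes Nfia, Nfib and Nfix were followed through the granule lineage of 4 mouse medulloblastomas. The members were chosen by name and are 3 of the 15002 genes in the count tables. The rule that names them uses no measured value, although earlier results of these data were known when it was written, and none of them served to define a cell class. NFI proteins are transcription factors that bind DNA as homodimers or heterodimers. In the cerebellum they are known for acting in granule neurons as these leave the cell cycle, migrate, extend axons and form dendrites, and Nfib and Nfia also act in the switch of neural progenitors to glia. The fourth gene of the family, Nfic, is given beside them as a reference.

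All 4 libraries belonged to 1 group. The mice were untreated and at postnatal day 16, and carried the Cre transgene hGFAP-Cre together with SmoM2, an active form of Smoothened, and were Prkaa1 fl/fl and Prkaa2 fl/fl. SmoM2 drives Sonic hedgehog signalling, the pathway that keeps granule cell progenitors dividing. Prkaa1 and Prkaa2 encode the catalytic subunits of AMP-activated protein kinase, and hGFAP-Cre recombines in neural stem cells and their progeny, so cells outside that lineage may keep both genes. The study set such tumours against tumours with intact Prkaa1 and Prkaa2. Tables with 11203 further cell columns could not be tied to labelled samples and are not used here, so nothing below compares genotypes. The series text describes the tumours as coming from replicate mice, 1 library each. The main fit takes out each library's own level, so its p-values measure the spread of class differences over these 4 libraries. They do not measure the spread in level between libraries.

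Cells were profiled by Drop-seq, which tags the 3′ end of each captured mRNA with a cell barcode and a unique molecular identifier (UMI), so that 1 UMI stands for 1 captured molecule. Of 6734 barcodes, 3222 had at least 500 UMIs, with 766, 807, 566 and 1083 in tumours 1 to 4 and median depths of 749 to 972 UMIs. No barcode at this depth was shared between libraries. The libraries fell into pairs: across genes, Pearson's r of log2 levels was 0.88 for tumours 1 and 2, 0.90 for tumours 3 and 4, and 0.57 to 0.74 across the pairs. The median share of mitochondrial UMIs was 10.2% and 11.6% in tumours 1 and 2, and 2.3% and 1.8% in tumours 3 and 4. The labels name no batch, so results are also given within each pair. Prkaa1 had 28 UMIs and Prkaa2 had 39 over all 4 tumours, and 3′ tags outside the deleted exons check nothing about the deletion.

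Each cell was thinned to 500 UMIs and classed by marker UMIs. Cells with at least 3 UMIs of G2/M genes or of S-phase genes were called cycling and named by the larger count. Cells with at least 3 UMIs of neuronal genes such as Neurod1, Rbfox3 and Grin2b were called neuronal, and cells with neither were called non-dividing. This gave 570 G2/M, 489 S-phase, 256 non-dividing and 942 neuronal cells. Another 890 cells had both cycling and neuronal UMIs and were set aside as mixed, and 75 cells with markers of other types, mostly oligodendrocyte, microglia and endothelial, were also set aside. Near the thresholds, 493 cells had 2 neuronal UMIs and 406 had exactly 3, so the classes are ranges along a continuum. The granule lineage label was checked against 11 transcription factor genes including Atoh1, Zic1, Pax6 and Barhl1. Their summed level was 2257 to 2501 CPM (UMIs of a gene or list per 1000000 UMIs of the class) in G2/M and S-phase cells and 3323 to 4730 CPM in neuronal cells. It was 3785 and 2935 CPM in non-dividing cells of tumours 3 and 4, but 1589 and 1469 CPM in tumours 1 and 2.

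The lower sums in tumours 1 and 2 came with transcripts of other cell types in the non-dividing class. Apoe, a lipid carrier of glia and macrophages, stood at 1522 and 2817 CPM there, against 57.9 and 118.6 CPM in tumours 3 and 4. Ttr, the choroid plexus gene for transthyretin, was at 71335 CPM in non-dividing cells of tumour 2 and at 49.6 and 69.2 CPM in tumours 1 and 4, and had no UMI in tumour 3. The whole choroid or ependymal list summed to 860 CPM in tumour 1, mostly from Ccdc153, a gene of ciliated cells, to 71594 in tumour 2, 0 in tumour 3 and 69.2 in tumour 4. Fibroblast markers summed to 745 and 432 CPM in tumours 1 and 2 and to 57.9 and 69.2 in tumours 3 and 4. Mural markers summed to 860 CPM in tumour 1, with Kcnj8, Acta2, Notch3 and Higd1b at 0, and to 19.8 to 51.8 CPM in the other 3 tumours. The members' levels, mean shares and tests in the non-dividing class are therefore also given for its 28, 27, 46 and 73 cells that had a granule UMI and few UMIs of other types. Among these cells Ttr had at most 3 UMIs per tumour, and Apoe stood at 690.5, 197, 71.1 and 70.3 CPM. Make-up, co-detection and listed targets use the whole class. In bulk sums of a class, more cells expressing a gene and more RNA per cell cannot be told apart, so shares of cells are given as well. Neuronal cells also had fewer UMIs than G2/M cells, with medians of 743.5, 760, 703 and 795 against 891, 794, 987 and 1154.5 in tumours 1 to 4. CPM is relative to the UMIs of the class, so a rise in CPM need not be a rise in molecules per cell.

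NFI proteins recognise a palindrome of the half-sites TTGGC and GCCAA, written whole as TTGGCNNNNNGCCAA. Promoter windows of the members were read from RefSeq (GRCm38.p6), 250 bases before to 50 after an annotated start. They are shown because the half-site is the motif the proteins themselves bind, and to set a member that rose in neuronal cells (Nfix) beside one that was not called (Nfia). The table held 1 window for Nfia and 4 for Nfix, and Nfib was not matched. The 4 Nfix windows held 0, 1, 1 and 2 half-sites, and the one printed was chosen because it held the most. The windows below run 5′ to 3′ with half-sites in capitals.

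Nfix, chr8:84772826-84773125, minus strand: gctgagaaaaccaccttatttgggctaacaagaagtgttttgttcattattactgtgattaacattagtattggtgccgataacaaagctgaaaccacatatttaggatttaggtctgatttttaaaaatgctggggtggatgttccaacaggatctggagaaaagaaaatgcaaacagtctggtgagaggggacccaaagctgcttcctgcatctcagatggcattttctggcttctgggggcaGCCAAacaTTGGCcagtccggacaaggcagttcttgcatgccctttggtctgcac

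Nfia, chr4:97581693-97581992, plus strand: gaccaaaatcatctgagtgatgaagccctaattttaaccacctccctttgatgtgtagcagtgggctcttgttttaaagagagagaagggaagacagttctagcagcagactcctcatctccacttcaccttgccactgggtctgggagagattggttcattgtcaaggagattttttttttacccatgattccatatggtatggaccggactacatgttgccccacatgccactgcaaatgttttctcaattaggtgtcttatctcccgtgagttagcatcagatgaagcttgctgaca

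The Nfix window held 2 half-sites, in the order GCCAA then TTGGC, with 1 on each side of the start. The Nfia window held none, as did 1 of the other Nfix windows, so a half-site does not separate the genes, and the Nfia start lies upstream of the GENCODE model of Nfia used below. Searched on both strands, 3 of the 5 member windows held a half-site, against 46.7% of all 32851 windows in the table. None held the whole palindrome, which occurred in 0.0365% of all windows. Such matches describe letters and do not show binding.

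On GRCm38 (mm10) the GENCODE M21 models place Nfia at chr4:97772734-98118874 on the plus strand, Nfib at chr4:82290173-82705750 on the minus strand and Nfix at chr8:84699876-84800344 on the minus strand. All 3 are protein-coding. Within the last 1000 bases of their transcripts no stretch of 25 bases was shared between family members, so 3′ reads of this length could be assigned to 1 member. Whether counting used strand is not given in the sources used here, so reads of genes on the opposite strand cannot be told apart from reads of the members. Nfia overlaps E130114P18Rik, with its own level of 458 to 511 CPM in the 4 tumours. Nfib overlaps Gm11266, at 106 to 153 CPM, and Nfix overlaps G430095P16Rik, at 15.2 to 33.2 CPM. None of these 3 genes lies near the 3′ end of its member, where reads are expected. Lyl1 does lie near the 3′ end of Nfix, on the opposite strand, and was not analysed here.

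Nfib rose in neuronal cells of every tumour. In G2/M cells it stood at 2952, 3608, 2969 and 2579 CPM in tumours 1 to 4, and in S-phase cells at 3593, 3272, 3081 and 2411 CPM. Non-dividing cells had 1837, 1832, 3534 and 2668 CPM. Neuronal cells had 4965, 4408, 5168 and 4871 CPM, so the lowest neuronal value lay above the highest value of each of the other classes. Ranked by UMIs among all genes, Nfib came 5th or 6th in neuronal cells and between 9th and 17th in G2/M cells, with no correction for how well each gene is captured.

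The mean of Nfib was 4853 ± 321 CPM in neuronal cells, 3089 ± 499 in S-phase cells, 3027 ± 427 in G2/M cells and 2468 ± 813 in non-dividing cells (SD, n = 4 tumours). The last value ranged from 2122 CPM with a gate of 2 marker UMIs to 3913 CPM with Leiden clusters in place of the gates. Fitted with edgeR's quasi-likelihood test on sums per tumour and class, with the tumour as a block, the log2 rise from G2/M to neuronal cells was 0.69 (SE 0.14, adjusted p = 0.000212), higher in 4 of 4 tumours. Against non-dividing cells the rise was 0.87 (SE 0.15, adjusted p = 4.64e-05), also in 4 of 4. The 3 classes below the neuronal one did not separate: non-dividing minus S-phase was -0.17 (SE 0.15, adjusted p = 0.66 by edgeR), and S-phase minus G2/M was -0.013 (SE 0.15, adjusted p = 0.99 by edgeR).

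Nfix rose in the same comparisons. Its levels in tumours 1 to 4 were 864, 1078, 895 and 863 CPM in G2/M cells and 775, 835, 683 and 879.6 CPM in S-phase cells. Non-dividing cells held 629, 588, 1217 and 1028 CPM. In neuronal cells the values were 1200.1, 1422, 1595 and 1945 CPM. Neuronal values did not overlap those of G2/M or S-phase cells, and overlapped those of non-dividing cells only because tumour 3 of the latter exceeded neuronal tumour 1. The means were 1540.3 ± 314 CPM in neuronal, 925 ± 103 in G2/M, 865 ± 307 in non-dividing and 793 ± 85.2 in S-phase cells (SD, n = 4).

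The log2 rise of Nfix from G2/M to neuronal cells was 0.74 (SE 0.15), with an edgeR adjusted p of 0.000121. From non-dividing cells it was 0.72 (SE 0.16), with an adjusted p of 0.00138, and each rise was seen in 4 of 4 tumours. Between the lower classes, non-dividing minus S-phase was 0.26 (SE 0.17, adjusted p = 0.52 by edgeR) and S-phase minus G2/M was -0.25 (SE 0.16, adjusted p = 0.64 by edgeR).

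Nfia differed more between libraries than between classes. In tumours 1 to 4 it stood at 1085, 1241, 1871 and 1530.3 CPM in G2/M cells and at 1169, 1333, 1974 and 1589 CPM in S-phase cells. Non-dividing cells had 728, 933, 2549 and 2332 CPM, and neuronal cells 1252, 1203, 2559.9 and 2409 CPM. In all 4 classes tumours 3 and 4 lay above tumours 1 and 2, and the classes overlapped. The means were 1856 ± 728 CPM in neuronal, 1636 ± 938 in non-dividing, 1516 ± 351 in S-phase and 1432 ± 346 in G2/M cells (SD, n = 4).

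The log2 difference of Nfia from G2/M to neuronal cells was 0.34 (SE 0.14, adjusted p = 0.070 by edgeR), with 3 of 4 tumours higher, and did not pass the threshold. It was 0.12 (SE 0.15, adjusted p = 0.68) against non-dividing cells, 0.17 (SE 0.16, adjusted p = 0.66) for non-dividing minus S-phase and 0.045 (SE 0.15, adjusted p = 0.96) for S-phase minus G2/M, all by edgeR. The G2/M comparison depends on which libraries are used. Without tumour 1 it was 0.44 (adjusted p = 0.022) and without tumour 2 it was 0.50 (adjusted p = 0.012), both past the threshold by edgeR. Without tumour 3 it was 0.29 (adjusted p = 0.28 by edgeR) and without tumour 4 it was 0.24 (adjusted p = 0.37 by edgeR). Nfic was lower in neuronal than in G2/M cells in 4 of 4 tumours, with means of 207 and 269 CPM, but the difference of -0.37 (SE 0.20) did not pass either (adjusted p = 0.16 by edgeR). From sums of cells thinned to 500 UMIs it was -0.62 (adjusted p = 0.048 by edgeR), just past the threshold.

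**Figure D1:**
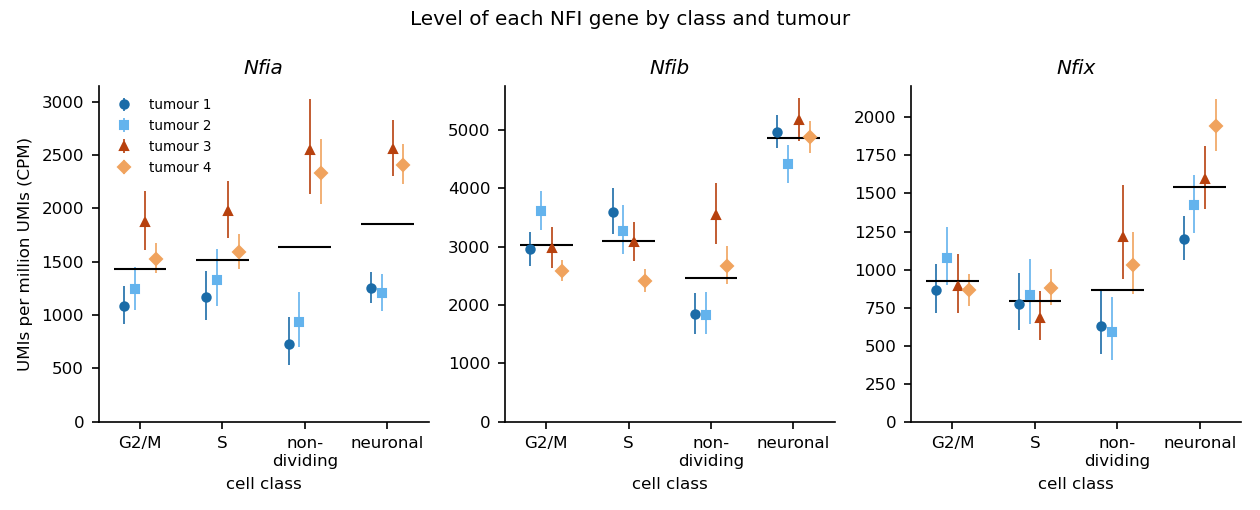
Level of Nfia, Nfib and Nfix in CPM (linear axis) by cell class; each point is the sum of 1 tumour and class, vertical lines are exact 95% Poisson intervals that cover counting error only, and horizontal bars are means of the 4 tumours. Nfib in neuronal cells (4408 to 5168 CPM) lies above every other class, and Nfia separates tumours 3 and 4 from tumours 1 and 2 in each class.

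Read against all genes, these calls are not rare. Among 3400 tested genes outside the marker lists, edgeR called 27.8% between neuronal and G2/M cells (13.9% higher and 13.9% lower in neuronal), 15% between neuronal and non-dividing cells (7.24% higher and 7.79% lower), 3.44% between non-dividing and S-phase cells and 2.18% between S-phase and G2/M cells. The members gave 2 calls of 3, 2 of 3, 0 of 3 and 0 of 3 in the same order. The values of all 4 neuronal sums lay above all 4 G2/M sums for 7.41% of genes, Nfib and Nfix among them, above all 4 S-phase sums for 6.47%, Nfib and Nfix among them, and above all 4 non-dividing sums for 7.06%, Nfib among them. The median log2 difference over all tested genes was -0.018 for neuronal minus G2/M and -0.048 for neuronal minus non-dividing.

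Within the pairs of libraries the direction of Nfib and Nfix held. In tumours 1 and 2 alone the neuronal minus G2/M difference was 0.57 for Nfib (adjusted p = 0.0498 by edgeR) and 0.48 for Nfix (adjusted p = 0.070 by edgeR). In tumours 3 and 4 alone it was 0.89 (adjusted p = 3.89e-15 by edgeR) and 1.08 (adjusted p = 1.05e-13 by edgeR). Each of these fits holds 2 libraries, so its p-values rest on little replication. Nfia gave 0.14 in the first pair (adjusted p = 0.69 by edgeR) and 0.60 in the second (adjusted p = 5.90e-07 by edgeR). An interaction test was added after the data were examined. In it the second pair minus the first was 0.41 for Nfia (SE 0.18, adjusted p = 0.52), 0.54 for Nfix (SE 0.20, adjusted p = 0.37) and 0.27 for Nfib (SE 0.23, adjusted p = 0.82 by edgeR), where 0.147% of genes were called. Before adjustment the edgeR p-values were 0.030 for Nfia, 0.010 for Nfix and 0.24 for Nfib. So a difference between the pairs in how the members changed was not shown after adjustment over all genes.

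Against non-dividing cells the rises also held within both pairs. Nfib gave 1.04 in tumours 1 and 2 (adjusted p = 0.00133) and 0.80 in tumours 3 and 4 (adjusted p = 5.08e-10 by edgeR). Nfix gave 0.79 (adjusted p = 0.020) and 0.78 (adjusted p = 4.95e-06 by edgeR). With only the non-dividing cells that had granule identity, the rise of Nfib was 0.73 (adjusted p = 3.33e-05 by edgeR) and that of Nfix 0.76 (adjusted p = 0.000759 by edgeR), while Nfia stood at -0.012 (adjusted p = 0.98). In these cells Nfib stood at 2893, 3158, 3367 and 2786 CPM in tumours 1 to 4, Nfix at 756, 740.3, 972 and 1168 CPM, and Nfia at 986, 1629, 2442 and 2617 CPM. The means were 3051 ± 263 CPM for Nfib, 909 ± 202 for Nfix and 1919 ± 756 for Nfia (SD, n = 4), so the mean of Nfia was above its neuronal mean of 1856 CPM. Their differences from S-phase cells were 0.29 for Nfia, -0.046 for Nfib and 0.21 for Nfix (adjusted p = 0.42, 0.94 and 0.70 by edgeR). Without the tumour as a block, the fit of all 4 tumours with the whole classes called neither Nfib nor Nfix in the neuronal comparisons. For neuronal minus G2/M, Nfib was 0.68 (adjusted p = 0.22 by edgeR) and Nfix 0.73 (adjusted p = 0.087 by edgeR).

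**Figure D2:**
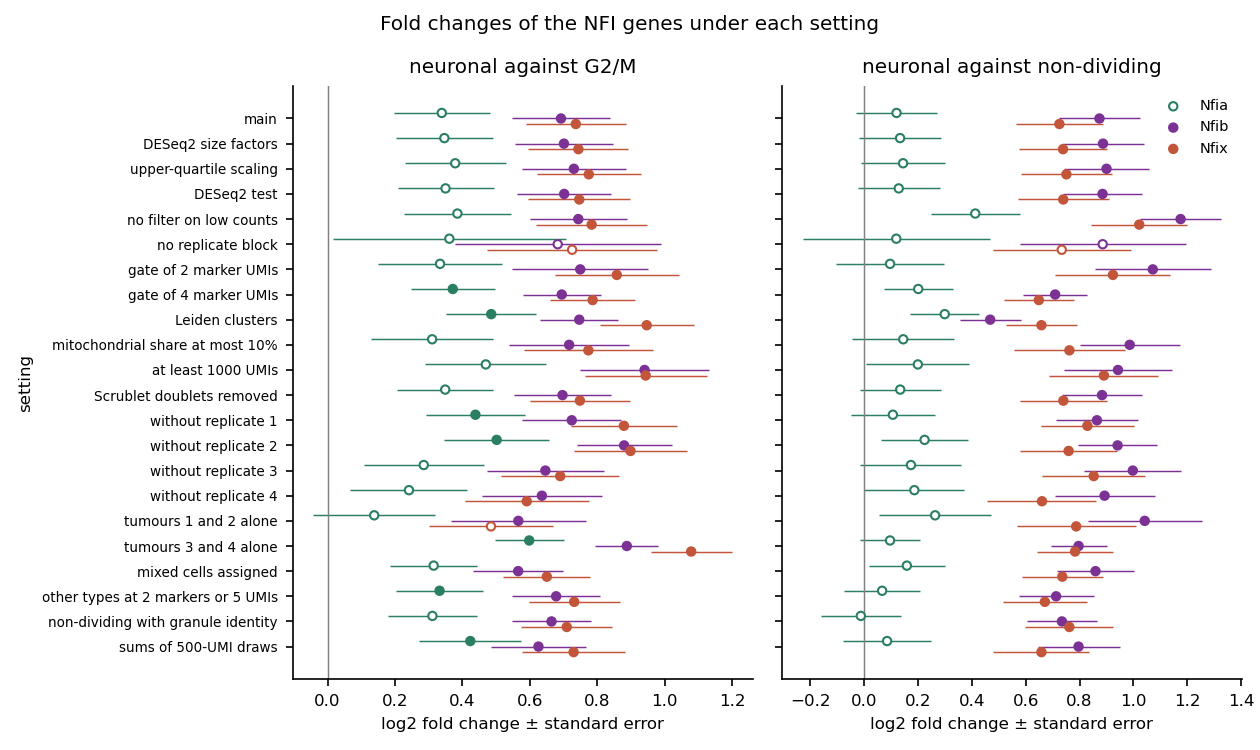
Log2 fold changes of the members with standard errors (edgeR or DESeq2, linear axis) for neuronal against G2/M cells (left) and neuronal against non-dividing cells (right), 1 line per setting; filled points passed the adjusted threshold of 0.05. Nfib and Nfix stay right of 0 in every setting and lose the threshold without the block, and Nfix also in tumours 1 and 2 alone for the G2/M comparison.

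The share of cells with a UMI was highest in neuronal cells of every tumour for Nfib and Nfix, but not for Nfia. After thinning to 500 UMIs, Nfib was seen in 82.2%, 84.3%, 83.5% and 87.0% of neuronal cells in tumours 1 to 4, and in 71.9%, 81.8%, 73.8% and 67.1% of G2/M cells. Nfix was seen in 38.9%, 49.2%, 53.7% and 56.0% of neuronal cells, and in 33.9%, 40.1%, 35.7% and 30.3% of G2/M cells. Nfia was seen in 43.7%, 39.8%, 65.4% and 59.7% of neuronal cells, and in 38.0%, 38.7%, 54.8% and 45.2% of G2/M cells. Each member was thus seen more often in neuronal than in G2/M cells of the same tumour, although the gap for Nfia in tumour 2 was small. Against the other classes Nfia had no common direction: S-phase cells had it in 46.2%, 54.3%, 57.9% and 44.3%, above neuronal cells in tumours 1 and 2, and non-dividing cells in 34.1%, 34.6%, 67.2% and 58.8%, above neuronal cells in tumour 3. In S-phase cells the mean shares were 50.7% for Nfia, 71.3% for Nfib and 32.5% for Nfix, and in non-dividing cells 48.7%, 65.4% and 34.2%. Non-dividing cells with granule identity gave 52.3%, 70.9% and 35.2%.

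Without thinning, when G2/M cells were deeper than neuronal cells, the mean share of Nfia was 66.3% in G2/M and 64.2% in neuronal cells, and that of Nfib 89.8% and 90.8%. Nfix gave 55.1% and 62%. Cells of other types served as a reference for free RNA. Thinned in the same way, 24 microglia (median 1207 UMIs before thinning) had Nfia in 8.33%, Nfib in 25% and Nfix in 25% of cells. In 16 endothelial cells (median 1619 UMIs) Nfia was seen in 18.8% and Nfib in 56.2%. Nfix was seen in 0 of 16 of them, where the exact 95% interval reaches 20.6%. Whether the reference cells themselves express these genes was not tested.

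Taking all NFI UMIs of a class, Nfib made up 59.5% ± 6.5 in neuronal, 57.0% ± 6.85 in S-phase, 56.2% ± 5.05 in G2/M and 51.2% ± 5.99 in non-dividing cells (SD, n = 4). Nfia made up 21.9%, 28.1%, 26.6% and 31.1% in the same order, and Nfix 18.6%, 14.8%, 17.2% and 17.7%. These are shares of captured 3′ molecules, and capture may differ between genes. The share of Nfia was 26.1% to 38.7% in tumours 3 and 4 and 16.9% to 27.8% in tumours 1 and 2. In the 890 mixed cells the mean levels lay between those of cycling and neuronal cells, at 3671 ± 289 CPM for Nfib, 1105 ± 94.1 for Nfix and 1649 ± 528 for Nfia (SD, n = 4). For Nfib and Nfix this order held in each tumour. For Nfia it did not: the mixed cells stood at 1035 CPM in tumour 1, below its G2/M, S-phase and neuronal cells, and at 1382 CPM in tumour 2, above all 3.

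Cells outside the cycling gates were next ordered by their neuronal UMIs per 500, a description added after the class results were seen. Nfib averaged 2468, 4177, 4860.1 and 5298 CPM over cells with 0 to 2, 3 to 5, 6 to 9 and 10 or more neuronal UMIs (n = 4 tumours). Nfix averaged 865, 1377, 1468 and 1687 CPM. The step from the first to the second bin was upward in 4 of 4 tumours for both genes. For Nfib it ran from 1837 to 4266 CPM in tumour 1 and from 3534 to 4562 CPM in tumour 3. The first bin is the non-dividing class, which in tumours 1 and 2 held the transcripts of other cell types described above, so the step there is smaller when granule identity is required (Nfib at 2893 CPM in tumour 1 and 3158 CPM in tumour 2). Beyond the second bin the order was less regular: Nfix in tumour 3 went from 1504 to 1315 and then 1757 CPM. Nfia averaged 1636, 1660.4, 1784 and 1988 CPM and did not order the tumours' bins alike, since tumour 2 went from 1292 to 1070 CPM between the second and the last bin.

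**Figure D3:**
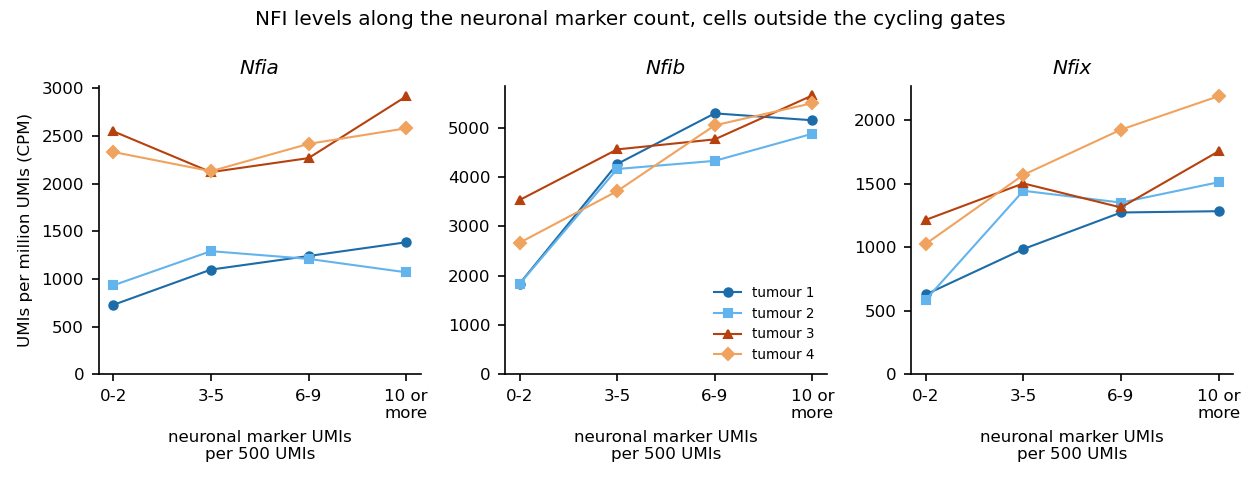
Level of each NFI gene in CPM (linear axis) in cells outside the cycling gates, binned by neuronal marker UMIs per 500 UMIs; each line is 1 tumour each bin holds at least 40 cells, and the first bin is the whole non-dividing class. Nfib and Nfix step up between the first and second bins in all 4 tumours, whereas for Nfia the lines of tumours 3 and 4 lie above those of tumours 1 and 2.

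At 500 UMIs all 3 members were seen together in neuronal cells about as often as their separate shares give, and in the other classes more often on average. The pair Nfib and Nfix did not share this order, with mean ratios of observed to expected cells of 0.982 in G2/M (0.903 to 1.07 over tumours), 0.976 in non-dividing, 1.04 in neuronal and 1.10 in S-phase cells. In thinned neuronal cells any member was seen in 91.5% to 96.8% of cells and all 3 in 14.1%, 14.1%, 30.9% and 31.4% in tumours 1 to 4. The observed numbers of cells with all 3 were 38, 27, 58 and 92, against 37.7, 31.5, 55.2 and 85.2 expected from the shares. In G2/M cells any member was seen in 85.5% to 90.5% of cells and all 3 in 9.92% to 16.8%. Observed over expected cells with all 3 averaged 1.17 in G2/M cells (1.07 to 1.32 over tumours), 1.17 in S-phase cells (0.94 to 1.40) and 1.38 in non-dividing cells (1.08 to 1.96), against 0.998 in neuronal cells (0.86 to 1.08). These rest on few cells, with 4 observed in the non-dividing class of tumours 1 and 2 each. For pairs of members in neuronal cells the ratio of observed to expected cells lay between 0.88 and 1.05. Nfia and Nfib were seen together more than expected in G2/M cells of all 4 tumours, with ratios of 1.08 to 1.12, and their lowest ratio over all sums was 0.999 in neuronal tumour 2. Cells of a tumour share their library and a fixed depth of 500 UMIs, so these ratios are descriptions. The non-dividing class had the widest range, 0.71 to 1.34, and its smallest sum rests on 44 cells.

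**Figure D4:**
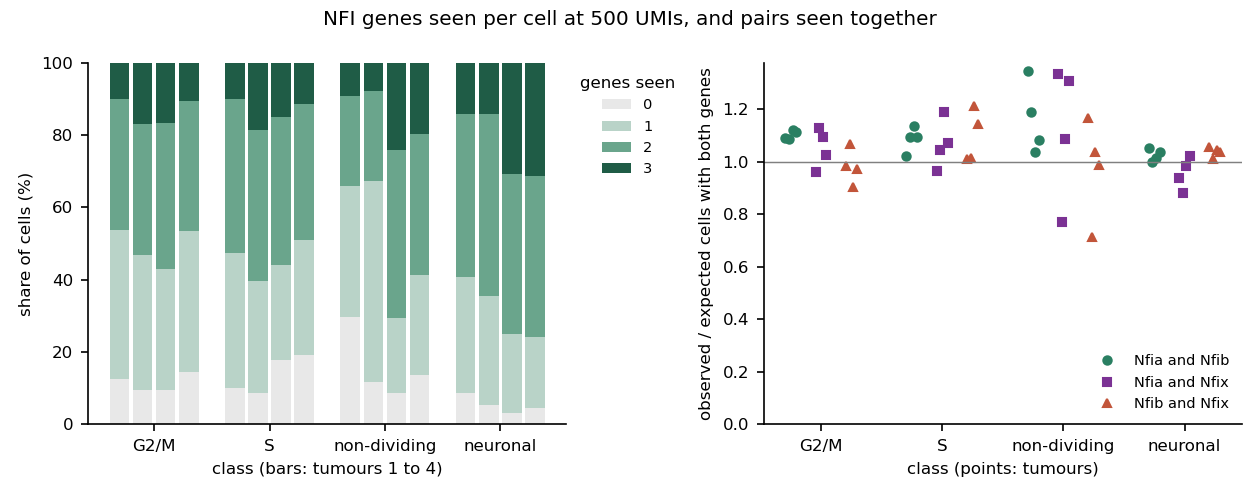
Left, share of cells in percent with 0, 1, 2 or 3 of the NFI genes seen at 500 UMIs, 1 stacked bar per tumour in order 1 to 4; right, observed over expected cells with both genes of a pair, 1 point per tumour. Neuronal cells of tumours 3 and 4 have all 3 genes in 30.9% and 31.4% of cells, and neuronal pair ratios lie between 0.88 and 1.05.

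Genes known as NFI targets or partners in granule neurons or neural progenitors were read from the same fit. Of 14 listed genes 12 were in the tables and 6 passed the filter on low counts. Between neuronal and G2/M cells 2 of the 6 rose and 3 fell, with a median log2 difference of -0.60, against calls for 27.8% and a median of -0.018 over all tested genes. Cntn2, an adhesion molecule of growing granule cell axons, rose by 3.55 (SE 0.21, adjusted p = 2.65e-17 by edgeR). Its neuronal levels were 2491, 2288, 794 and 734 CPM in tumours 1 to 4, above every G2/M value, of which the highest was 286 CPM in tumour 2. Tumours 1 and 2 were above tumours 3 and 4 here, whereas Nfia in neuronal cells was higher in tumours 3 and 4. Slc1a2, a glutamate transporter, rose by 0.60 (SE 0.19, adjusted p = 0.016 by edgeR).

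The listed genes that fell in neuronal cells were Ezh2, the methyltransferase of Polycomb repressive complex 2 (-1.15, adjusted p = 5.31e-07 by edgeR), Sox9, a factor of neural progenitors and glia (-1.20, adjusted p = 0.00297), and Hes1, a Notch target that holds progenitors undifferentiated (-1.28, adjusted p = 0.014). Each was lower in 4 of 4 tumours. Cdh2, the adhesion molecule N-cadherin, stood at -0.044 (adjusted p = 0.92). Against non-dividing cells 1 of the 6 rose and 2 fell, with a median log2 difference of -0.069, where 15% of all tested genes were called. Cntn2 rose by 2.73 (adjusted p = 8.63e-12 by edgeR), Hes1 fell by 2.41 (adjusted p = 8.38e-05) and Sox9 fell by 1.94 (adjusted p = 8.63e-05). Ezh2 and Slc1a2 had the opposite sign to that against G2/M and were not called, at 0.16 (adjusted p = 0.71 by edgeR) and -0.22 (adjusted p = 0.54 by edgeR). Astrocyte markers, which Sox9 and Hes1 can accompany, summed to 612 CPM in non-dividing cells of tumour 1 and 135 to 208 CPM in the other tumours, and their part in these falls was not tested. In non-dividing cells with granule identity Hes1 had 4, 0, 2 and 25 UMIs and Sox9 had 0, 4, 7 and 25 in tumours 1 to 4. Gabra6, the receptor subunit of mature granule neurons, had 4 UMIs in the 4 classes together and could not be tested.

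Lastly, genes were ranked by likeness to each member, as Pearson's r of log2 CPM over the 16 sums, centred within tumour, among 3375 genes. The sums of a tumour share a library, and the differences between classes dominate such correlations, so they carry no test. Nfib was most like Cacna2d1, a calcium channel subunit (r = 0.97), and Rufy3, a protein of axon growth (0.96). Nfix was most like the granule lineage factor Zic1 (0.95), Cdk5r1, the activator of the neuronal kinase Cdk5 (0.93), and Ptms (0.93). Nfia was most like 4932438A13Rik (0.95), the transcription factor Tcf4 (0.86) and the ubiquitin ligase Nedd4l (0.85). Between members, r was 0.88 for Nfib and Nfix, 0.70 for Nfia and Nfib and 0.68 for Nfia and Nfix.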

How the data were processed

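Per the labels, 4 untreated tumours dissociated with papain were profiled by Drop-seq. The authors deposited whole-number UMI counts per gene and barcode, not normalized. STAR and mm10 are named in the submitters' processing notes; the annotation, counting step, strand use and barcode filter are not given in the sources used here. Of the deposited columns, 11203 matched no labelled sample and were not used. The members and gene lists were chosen with earlier results of these data known. Named genes were the 3 members, Nfic, 14 listed targets and the 3 genes most like each member, of which 1 is not reported here.

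Cells needed 500 UMIs, were thinned to 500 for classing and shares, and summed unthinned per tumour and class (16 sums, 51777 to 311704 UMIs each). edgeR 4.0.16 in R 4.3.3 used TMM, filterByExpr and the tumour as a block, because the classes of 1 tumour come from 1 library; same-tumour sums deviated together (r 0.33 to 0.77). P-values were adjusted by Benjamini-Hochberg over 3499 genes, with a threshold of 0.05; marker-list genes were not counted. Tested on simulated data for neuronal against G2/M (2739 genes), the fit recovered, among changed genes that passed the filter, 68.9% of 2-fold and 100% of 4-fold rises, and 52.8% and 97.3% of falls of these sizes. Scrublet (scanpy 1.11.5) marked 12 doublets, which were kept. Intervals are exact and at 95%, for counting error only. Alternatives covered scaling, test, filters, gates, libraries and clustering (leidenalg 0.10.2); DESeq2 1.42.0 was one.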

Additional observations from a re-analysis of the deposited data

Results flagged for a closer look

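Among 12 groups of 4 tumours (3 members in 4 classes), 1 held a value far from the other three. Nfix in G2/M cells stood at 1078 CPM in tumour 2, against 863 to 895 CPM in tumours 1, 3 and 4. Chance alone sets apart about 1 group in 20 in this way. Tumour 2 had 132 Nfix UMIs in this class, and its exact 95% counting interval of 902 to 1278 CPM overlapped that of tumour 3, which was 718 to 1102 CPM.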

How the results depend on the processing

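Nfib and Nfix stayed above 0 in neuronal against G2/M and against non-dividing cells under all 21 alternatives of each, and were called in 20 and 20 of them for Nfib and in 19 and 20 for Nfix. Log2 differences lay between 0.57 and 0.94 and between 0.47 and 1.17 for Nfib, and between 0.48 and 1.08 and between 0.65 and 1.02 for Nfix. Without the replicate block (the tumour) the calls were lost: against G2/M, Nfib was 0.68 and Nfix 0.73; against non-dividing, 0.89 and 0.73, with 267, 46, 18 and 10 genes called in the 4 comparisons in the order neuronal against G2/M, neuronal against non-dividing, non-dividing against S and S against G2/M. The block comes from the design, since the classes of a tumour share 1 animal. In tumours 1 and 2 alone Nfix against G2/M was 0.48. The cause was not tested in any of these cases.

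Nfia, not called against G2/M in the main setting, was called with a gate of 4 (0.37), Leiden clusters (0.49), tumours 3 and 4 alone (0.60), other types set aside at 2 markers or 5 UMIs (0.33) and sums of 500-UMI draws (0.42), and ranged from 0.24 to 0.50 with 1 tumour left out. Against non-dividing cells it turned to -0.012 with granule identity required. Small uncalled differences changed sign: for non-dividing minus S, Nfia with no filter (-0.031), with tumours 1 and 2 (-0.18) and with 1 tumour left out (-0.013 to 0.31), where tumours 3 and 4 gave a call (0.49); Nfib with Leiden clusters (0.25) and tumours 3 and 4 (0.18). Leiden clusters also called Nfix (0.48) there. Their non-dividing class is not the gated one: it joins 3 unnamed clusters of 605, 592 and 475 cells, in which the marker lists furthest above the other cells were GABAergic interneuron (by 0.61 on the log2 scale), neuronal (0.95) and choroid or ependymal (0.42). For S minus G2/M, Nfia turned with a gate of 2 (-0.083), Leiden clusters (-0.14), a mitochondrial limit of 10% (-0.17) and 1000 UMIs (-0.038), and Nfib with upper-quartile scaling (0.025), a gate of 4 (0.014), Leiden clusters (0.025), 1000 UMIs (0.16), tumours 1 and 2 (0.021) and 1 tumour left out (-0.12 to 0.036). Nfic changed sign against S at the mitochondrial limit (0.034), in tumours 3 and 4 (0.097) and with 1 tumour left out (-0.43 to 0.0093), in S minus G2/M in tumours 3 and 4 (-0.0033), and in neuronal minus G2/M at 1000 UMIs (0.050), a comparison in which 500-UMI draws gave it a call (-0.62).

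Counts of called genes, in the same order as above, were 945, 511, 117 and 74. With 1 tumour left out they ranged from 550 to 946, 265 to 438, 60 to 101 and 34 to 74. The first fell to 550 without tumour 4, the second to 312 and 265 without tumours 3 and 4, the third to 60 and 71 without tumours 1 and 2 and the last to 48 and 34 without tumours 3 and 4. They were 532, 264, 76 and 29 with a gate of 2, 335, 183, 54 and 21 at 1000 UMIs, 477, 249, 41 and 31 from 500-UMI draws and 444, 269, 184 and 20 in tumours 1 and 2. Leiden clusters gave 803, 528 and 141 in the last 3 comparisons. In the last 2, tumours 3 and 4 gave 75 and 124 and the mitochondrial limit 58 and 39. Non-dividing against S gave 235 without the filter and 73 with granule identity, and S against G2/M gave 118 with a gate of 4 and 135 with mixed cells assigned. Fewer cells or UMIs entered several of these fits. Mixed-cell assignment, other-type limits, granule identity, 500-UMI sums and the interaction test of the library pairs were added after seeing the data.

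Of the mean levels, 3 moved by more than the spread between tumours: Nfib in non-dividing cells, 2468 CPM, was 3913 with Leiden clusters, and Nfib in neuronal cells, 4853 CPM, was 5190.3 with Leiden clusters and 5231 without mitochondrial genes in the total.

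Depth limits the shares. Thinned to 1000 UMIs any member was seen in 98.9% of G2/M, 98.5% of S and 98.0% of neuronal cells, and without thinning in 97.0%, 93.6% and 97.3%. The co-detection ratio over pairs was 1.004 in G2/M and 1.005 in S cells at 1000 UMIs, and 1.09 in G2/M and 1.04 in neuronal cells with a gate of 2.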
